A study of Homo sapiens with 9 samples.

Results

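Of the human long noncoding genes, those whose approved symbol ends in -AS and a digit are named after a neighbouring gene on the opposite strand. The account below covers the 290 such genes that were selected on their level, with a mean CPM (the share of all gene counts of a library, scaled to 1000000) of at least 0.5 over 9 poly(A)-selected RNA-seq libraries of ALL-SIL, out of 1219 genes of that naming class and 58096 genes in the count tables. The rule for this choice uses no difference between groups, but it was set with earlier results of these data known. ALL-SIL is a human cell line from a T-cell acute lymphoblastic leukaemia that expresses TLX1, a homeobox transcription factor and T-cell oncogene. The cells had received a small interfering RNA (siRNA), which guides the cleavage machinery to cut a matching messenger RNA, by electroporation. The first group carries the label TLX1 siRNA1, the second TLX1 siRNA2 and the third NTC siRNA, with 3 libraries and replicate numbers 1 to 3 in each. All 3 groups were electroporated, and harvest time and dose are unknown from the sources used here. All libraries come from 1 cell line. Whether same-label libraries stem from separate cultures is not stated, so p-values reflect only the spread among these libraries, which may be technical.

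Antisense transcripts are made from the strand opposite to that of their partner. Many start close to the partner's start and run away from it (head to head), others run into the partner's 3′ end (tail to tail) or lie inside it. Some are known to act on the partner in cis, through transcription itself, through the chromatin they recruit or by pairing with the partner's RNA, and many have no assigned role. A divergent pair shares a start region from which both strands are read, so this region is the sequence with which a pair can be introduced. The RefSeq promoter windows (GRCh38.p14, 250 bases before to 50 bases after the start) of 3 antisense genes are printed below, because the results turn on how each stood beside its partner between the siRNA1 and NTC labels: the HHIP pair was lower together, in the RTCA pair the antisense gene was higher, and in the SCAMP1 pair the partner was lower. Capitals mark bases that also lie in the partner's window on the other strand. The starts lie 137 bases apart in the HHIP pair (chr4:144645970-144646269, minus strand, 236 shared bases), 42 apart in the RTCA pair (chr1:100266125-100266424, minus strand, 141 shared bases) and 76 apart in the SCAMP1 pair (chr5:78360492-78360791, minus strand, 175 shared bases).
HHIP-AS1: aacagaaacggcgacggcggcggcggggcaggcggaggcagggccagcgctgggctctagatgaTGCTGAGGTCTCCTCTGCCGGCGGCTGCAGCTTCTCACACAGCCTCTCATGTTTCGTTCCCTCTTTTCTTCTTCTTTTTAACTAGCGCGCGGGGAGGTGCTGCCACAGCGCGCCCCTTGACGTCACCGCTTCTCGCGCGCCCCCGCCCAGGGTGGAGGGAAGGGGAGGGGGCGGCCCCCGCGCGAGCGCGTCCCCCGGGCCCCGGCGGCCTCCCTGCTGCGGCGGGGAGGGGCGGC
RTCA-AS1: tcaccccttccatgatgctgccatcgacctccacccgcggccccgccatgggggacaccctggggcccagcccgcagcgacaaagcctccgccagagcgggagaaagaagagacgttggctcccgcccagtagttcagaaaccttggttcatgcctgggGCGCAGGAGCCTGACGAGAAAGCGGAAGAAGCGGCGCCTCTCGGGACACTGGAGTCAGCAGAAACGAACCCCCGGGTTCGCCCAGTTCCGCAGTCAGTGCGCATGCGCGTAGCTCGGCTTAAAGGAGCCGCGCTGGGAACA
SCAMP1-AS1: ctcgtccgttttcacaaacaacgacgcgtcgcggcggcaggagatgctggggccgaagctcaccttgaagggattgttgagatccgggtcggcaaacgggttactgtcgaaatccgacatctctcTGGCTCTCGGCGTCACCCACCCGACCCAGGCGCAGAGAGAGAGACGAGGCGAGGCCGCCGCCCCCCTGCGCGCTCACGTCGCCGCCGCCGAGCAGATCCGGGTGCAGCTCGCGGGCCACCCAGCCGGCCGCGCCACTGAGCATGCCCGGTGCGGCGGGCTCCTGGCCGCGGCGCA

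All 3 windows hold the GC box GGGCGG, and none holds the TATA box, searched as TATAAA, the CCAAT box or the ETS core CCGGAAG, with both strands searched for each. RefSeq windows were matched for 198 of the 290 antisense genes (231 windows). GGGCGG stood in 58.0% of these, against 45.0% of all 35116 windows of the same length, which were not selected on expression. The ETS core stood in 16.0% against 10.3%, the CCAAT box in 31.6% against 34.6% and the TATA box in 7.36% against 11.5%. The median GC content was 62.7% against 58.7%, with 7.33 against 4.67 CpG per 100 bases. The partners' own windows (384 windows of 230 genes) held the GC box in 58.9%, the ETS core in 14.1%, the CCAAT box in 37.2% and the TATA box in 8.07%, with a median GC content of 62.8% and 7.67 CpG per 100 bases. These shares describe letters in a window, not binding.

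Library depth ran from 58305492 to 99524663 gene counts, so that 0.5 CPM stands for 29.2 counts in the shallowest library and 49.8 in the deepest. The reads carry no molecular identifiers and may include copies of 1 molecule. Under the siRNA1 label TLX1 itself had 402, 452 and 401 CPM, under the siRNA2 label 198, 225 and 185 CPM, and under the NTC label 179, 168 and 183 CPM. Against the NTC label its level was 1.22 higher on the log2 scale under the siRNA1 label (adjusted p = 2.05e-10) and 0.18 higher under the siRNA2 label (adjusted p = 0.495). The increase goes against the siRNA1 label, so every direction below is by label only. Summed T-lineage markers held 2058 to 2468 CPM per library, with CD3D and CD7 at 538 and 399 CPM and CD2 at 3.62 CPM. Summed markers of B cells held 10.4 to 22.1 CPM, with MS4A1 and CD22 near 0, of myeloid cells 0.380 to 0.934 CPM, of erythroid cells 0 to 0.0343 CPM and of epithelial cells or fibroblasts 0.0703 to 0.194 CPM. In bulk RNA a lower level in every cell and fewer cells that hold the RNA cannot be told apart.

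By biotype in GENCODE 29 on GRCh38, from which all gene positions below come, 217 of the 290 were annotated as antisense, 39 as processed transcript, 25 as lincRNA, 1 as protein coding and the others as pseudogenes or rarer classes. A gene of the root symbol was found for 287, giving 281 distinct partners, because PTOV1, DLGAP1, NCBP2, ZNF32, BAALC and PAXIP1 each have 2 antisense genes above the threshold. TRG-AS1, RPARP-AS1 and HOXA-AS3 had no gene of the root symbol. Head to head, by the outer ends of the genes, was the most frequent arrangement. In 113 such pairs the gene bodies overlapped and in 36 they did not, and in 110 head-to-head pairs the starts lay within 1000 bases. A further 63 ran tail to tail with overlap and 2 without, 53 lay within the partner and 20 contained it. The members just above the threshold were TM4SF19-AS1 (0.521 CPM), CCNT2-AS1 and SLCO4A1-AS1 (0.524 CPM each), and those just below it were RORA-AS1 (0.498 CPM), CRTC3-AS1 (0.496 CPM) and LACTB2-AS1 (0.487 CPM). Of the 929 genes of the class below it, 405 had no count in any library, and GATA3-AS1 is among the 929.

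Most antisense genes were weakly expressed, and a few were as abundant as well-expressed messenger RNAs. The median of the 290 mean levels was 2.74 CPM, 121 lay under 2 CPM, 66 reached 10 CPM and 4 reached 100 CPM. Those 4, OIP5-AS1, LRRC75A-AS1, TRG-AS1 and FGD5-AS1, held 36.2% of the summed level. Together the 290 held 3683 ± 156 CPM in the libraries labelled siRNA1 and 3493 ± 214 CPM in those labelled siRNA2, against 3421 ± 121 CPM in those labelled NTC (SD, n = 3 each).

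OIP5-AS1 (chr15:41283990-41309737, plus strand, tail to tail with the kinetochore gene OIP5) is a conserved cytoplasmic RNA known for its pairing with a microRNA. It led with 430, 424 and 399 CPM in the libraries labelled siRNA1, 450, 415 and 490 CPM in those labelled siRNA2 and 420, 445 and 419 CPM in those labelled NTC. The groups overlapped, and its difference between the siRNA1 and NTC labels was -0.05 ± 0.07 on the log2 scale (SE, adjusted p = 0.715). LRRC75A-AS1 averaged 302 CPM, while its partner LRRC75A averaged 0.781 CPM in the unstranded count. That count leaves out reads in exons shared with an opposite-strand gene, because they cannot be assigned to either gene. Such reads made up 99.7% of those that could belong to LRRC75A and 43.8% of those that could belong to LRRC75A-AS1. FGD5-AS1 averaged 255 CPM against 4.52 CPM for FGD5, which encodes a guanine nucleotide exchange factor. Next by level came RNF144A-AS1 at 95.7 CPM, PSMA3-AS1 at 94.8 CPM, GABPB1-AS1 at 81.8 CPM, THAP9-AS1 at 72.1 CPM, OTUD6B-AS1 at 68.3 CPM and THUMPD3-AS1 at 50.5 CPM. Of the 10 most abundant, only TRG-AS1, RNF144A-AS1 and THAP9-AS1 passed the test between the siRNA1 and NTC labels given below.

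Compared per length, the antisense gene was usually the weaker of a pair. With levels divided by the exonic sequence that no other gene shares (CPM per kb, 286 pairs with at least 200 such bases in both genes), the antisense genes had a median of 1.42 and their partners of 7.96 CPM per kb, and the median partner-to-antisense ratio was 4.14. The antisense gene exceeded its partner in 75 pairs (26.2%). The excess was large in LRRC75A-AS1, with 97.5 CPM per kb against 0.241 for LRRC75A, and in FGD5-AS1, with 53.2 against 0.571. HHIP-AS1 had 5.16 CPM per kb against 0.515 for HHIP. LEF1-AS1 showed the other order, with 2.32 CPM per kb against 155 for LEF1, a transcription factor of Wnt signalling and T-cell development.

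**Figure D1:**
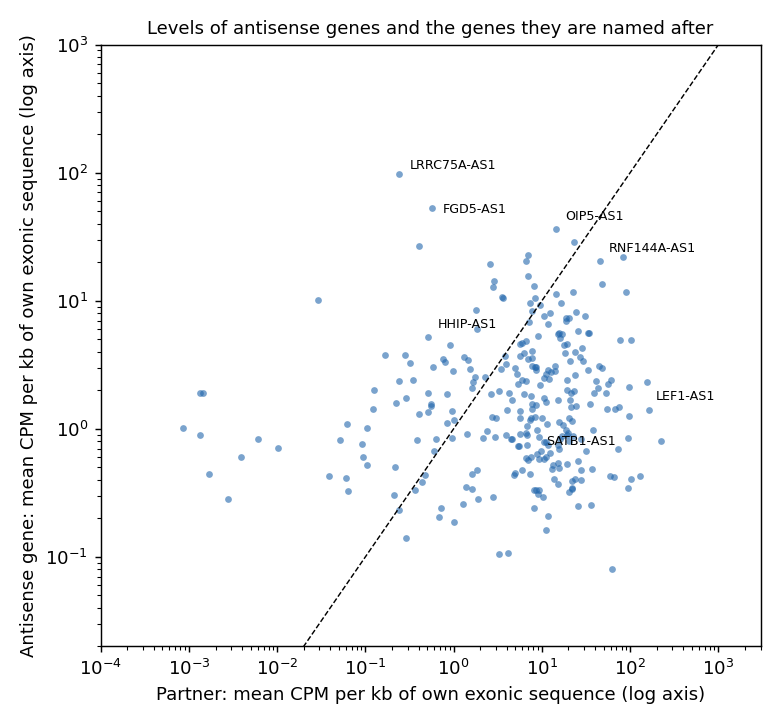
Each point is an antisense gene and its partner, with the partner's mean level over 9 libraries on the horizontal axis and the antisense gene's on the vertical axis, both in CPM per kb of own exonic sequence on log axes, and the dashed line marks equal levels. The plot shows 285 of the 286 pairs, since IGFL2 has no count. Most points lie under the line, and LRRC75A-AS1 and FGD5-AS1 stand far above it.

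Over the 9 libraries the ratio of the highest to the lowest level of an antisense gene had a median of 1.66 and ran from 1.05 (MAPKAPK5-AS1) to 21.2 (IGFL2-AS1), and the median coefficient of variation was 16.9%. The variation of IGFL2-AS1 followed the replicate number and not the label. It stood at 0.116, 1.18 and 1.49 CPM in replicates 1 to 3 labelled siRNA1, at 0.0703, 0.989 and 0.978 CPM in those labelled siRNA2 and at 0.138, 1.08 and 1.07 CPM in those labelled NTC, so that all 3 libraries numbered 1 were low. IGFL2 had no count in any library. UBXN10-AS1 varied by number as well, with the libraries numbered 2 lowest in each group. Same-numbered libraries deviated together across all genes, so the replicate number was a term (a block) of every test below unless stated.

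Because the library kit does not mark strand, reads from exons that 2 opposite-strand genes share cannot be assigned to either. In the deposited tables such reads are missing from the count made without regard to strand, but each remains in 1 of the 2 counts by strand. The excess of the summed strand counts over the unstranded count, as a percentage of that sum, is used here as the overlap share of a gene. It had a median of 26.0% over the 290 antisense genes (quartiles 3.71% and 71.9%), against 6.0% over their partners and 0.0171% over all 18554 tested genes. The share was under 1% in 54 antisense genes, over 50% in 104 and over 90% in 30. The highest shares were those of MIF-AS1 (99.3%), VIM-AS1 (99.0%), LIX1L-AS1 (99.0%), PRC1-AS1 (98.1%) and CACTIN-AS1 (97.9%). VIM-AS1, for example, kept a mean of 1.92 CPM in the unstranded count while its partner VIM, the intermediate filament vimentin, had 261 CPM. By arrangement, the median share was 0.211% head to head without overlap, 26.3% head to head with overlap, 55.9% tail to tail with overlap, 35.6% within the partner and 22.3% around it.

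**Figure D2:**
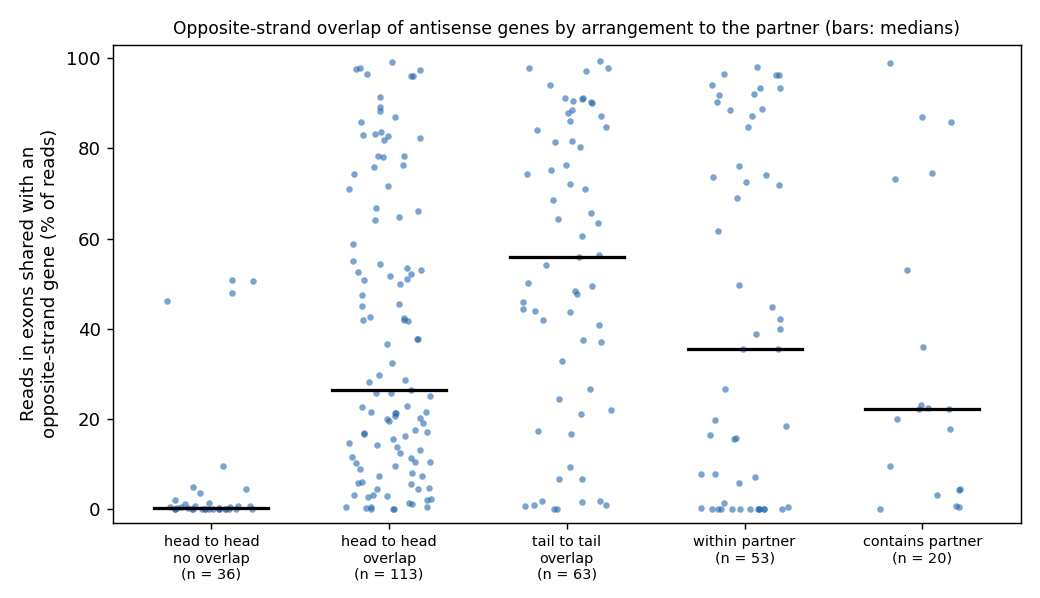
The vertical axis gives, for each antisense gene (point), the percentage of its reads in exons shared with an opposite-strand gene, averaged over 9 libraries, and the columns give 5 arrangements to the partner with their numbers of genes, with the median as a bar. Head-to-head pairs without overlap lie near 0, with a median of 0.211%, and tail-to-tail pairs with overlap are highest, with a median of 55.9%.

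Between the siRNA1 and NTC labels, the antisense genes leaned towards higher levels. Of the 290, 35 were higher (12.1%) and 12 lower (4.14%) at an adjusted p under 0.05, while 5.48% of all 18554 tested genes were higher and 5.93% lower. Their log2 fold changes had a median of 0.10 against 0.00 over all tested genes, and 197 of 290 (67.9%) lay above 0 against 51.1% of all tested genes. With the strand counts summed the median over the 290 was 0.05, and 28 were higher and 15 lower. Other long noncoding genes at 0.5 CPM or more had 97 of 1495 higher (6.49%) and 68 lower (4.55%), with a median of 0.07, and protein-coding genes at that level had 753 of 11023 higher (6.83%) and 922 lower (8.36%), with a median of -0.01. Most called changes were small: the median log2 fold change was 0.36 among the 35 and -0.48 among the 12, and only HDAC2-AS2, EPHA1-AS1 and HHIP-AS1 passed 2-fold. The libraries of both groups did not overlap in 54 antisense genes (18.6%), against 16.0% of all tested genes, and 28 of these 54 were called. The count depended on single libraries: it was 28 without NTC replicate 1, 22 without NTC replicate 3, 19 without siRNA1 replicate 1 and 29 without siRNA1 replicate 3, and 16 without the 3 libraries numbered 1. The share of all tested genes called with libraries left out is not given here, so these drops cannot be read as particular to antisense genes. Without the block 5 antisense genes passed (1.72%, against 1.28% of all tested genes), namely TRG-AS1, DBH-AS1, HHIP-AS1, EPHA1-AS1 and TNRC6C-AS1, all of them among the 47.

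HDAC2-AS2 (chr6:113969701-114471705, plus strand), named after the histone deacetylase gene HDAC2, was the most increased. It had 10.4, 5.84 and 10.2 CPM in the libraries labelled siRNA1 and 5.26, 2.73 and 4.22 CPM in those labelled siRNA2, against 4.78, 3.08 and 3.25 CPM in those labelled NTC. All libraries labelled siRNA1 stood above all others, although replicate 2 was the lowest of its number in each group. The log2 fold change was 1.22 ± 0.11 (SE, adjusted p = 8.72e-08), and adjusted p was 0.0524 without the block.

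EPHA1-AS1 (chr7:143407813-143523449, plus strand) lies beside EPHA1, which encodes an ephrin receptor tyrosine kinase. Its levels were 2.26, 1.78 and 2.17 CPM in the libraries labelled siRNA1 and 1.46, 0.940 and 1.03 CPM in those labelled siRNA2, against 0.861, 0.985 and 0.791 CPM in those labelled NTC. The siRNA1 and NTC groups did not overlap, and the log2 fold change was 1.19 ± 0.16 (adjusted p = 1.28e-05). None of its own reads lay in shared exons. BHLHE40-AS1, beside the gene of a basic helix-loop-helix repressor, had 1.58, 1.16 and 1.21 CPM under the siRNA1 label against 0.877, 0.543 and 0.587 CPM under the NTC label, a log2 fold change of 0.98 ± 0.16 (adjusted p = 0.000215). As 81.8% of its reads were shared with an opposite-strand gene, its level rests on the remainder.

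TNRC6C-AS1 (chr17:78107398-78111799, minus strand) runs tail to tail into TNRC6C, whose product silences messenger RNAs bound by microRNA complexes. It had 12.1, 10.8 and 16.5 CPM in the libraries labelled siRNA1 and 7.11, 5.93 and 8.90 CPM in those labelled siRNA2, against 6.32, 6.51 and 7.86 CPM in those labelled NTC. Again the siRNA1 group stood above both others without overlap (log2 fold change 0.90 ± 0.09, adjusted p = 1.4e-07). With the strand counts summed, the edgeR log2 fold change of TNRC6C-AS1 was smaller, at 0.59 (adjusted p = 4.22e-05). RTCA-AS1, whose start region is printed above, had 1.90, 1.69 and 2.48 CPM under the siRNA1 label and 1.31, 1.04 and 1.37 CPM under the siRNA2 label, against 1.11, 1.13 and 1.27 CPM under the NTC label (log2 fold change 0.76 ± 0.14, adjusted p = 0.000597). None of its reads lay in annotated exons shared with an opposite-strand gene.

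TRG-AS1 (chr7:38341577-38378804, plus strand) lies opposite the T-cell receptor gamma locus, which rearranges in T-cell precursors. It was the most abundant antisense gene to pass, with 337, 335 and 368 CPM in the libraries labelled siRNA1 and 260, 269 and 295 CPM in those labelled siRNA2, against 234, 251 and 249 CPM in those labelled NTC. The siRNA1 libraries stood above all others, with a log2 fold change of 0.49 ± 0.06 over the NTC label (adjusted p = 4.39e-06, and 0.0068 without the block). RNF144A-AS1, beside a ubiquitin ligase gene, was higher by a small amount, with 114, 102 and 105 CPM under the siRNA1 label against 97.1, 84.6 and 87.3 CPM under the NTC label (log2 fold change 0.24 ± 0.06, adjusted p = 0.011). RNF144A-AS1 passed in 6 of the 9 fits that left out 1 library. Its adjusted p by edgeR was 0.347 without the block and 0.146 without the 3 libraries numbered 1.

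Others among the 10 largest increases were MMP25-AS1 (log2 fold change 0.75, adjusted p = 1.9e-05), beside a membrane-bound matrix metalloproteinase gene, and CHRM3-AS2 (0.72, adjusted p = 4.12e-05), inside a muscarinic acetylcholine receptor gene with at most 0.0461 CPM in any library. CEBPB-AS1 (0.66, adjusted p = 0.00205) stands beside the gene of a leucine zipper transcription factor. POT1-AS1 (0.55, adjusted p = 0.0367) stands beside the gene of a telomere end-binding protein, and it passed in 5 of the 9 fits that left out 1 library. PAXBP1-AS1 had 2.04, 2.35 and 2.46 CPM under the siRNA1 label against 1.62, 1.38 and 1.63 CPM under the NTC label (log2 fold change 0.56 ± 0.14, adjusted p = 0.00756). The share of its reads in common with an opposite-strand gene was 90.4%, and with the strand counts summed, which counts those reads too, the log2 fold change was -0.0039 (adjusted p = 0.986).

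Among the 12 lower genes, HHIP-AS1 (chr4:144642922-144661357, minus strand) changed most. HHIP encodes an inhibitor that binds Hedgehog ligands. In GENCODE 29 the outermost starts of this pair lie 15336 bases apart and the gene bodies overlap, unlike in the RefSeq windows above. The antisense gene had 3.43, 4.81 and 5.27 CPM in the libraries labelled siRNA1 and 6.76, 6.94 and 8.90 CPM in those labelled siRNA2, against 8.63, 8.85 and 10.5 CPM in those labelled NTC. The siRNA1 group lay below both others without overlap (log2 fold change -1.07 ± 0.10, adjusted p = 8.72e-08). DBH-AS1 (chr9:133654586-133657313, minus strand) lies within DBH, the gene of dopamine beta-hydroxylase. Its levels were 30.9, 30.0 and 33.8 CPM under the siRNA1 label and 48.1, 41.2 and 42.5 CPM under the siRNA2 label, against 42.7, 52.0 and 51.0 CPM under the NTC label (log2 fold change -0.64 ± 0.08, adjusted p = 4.54e-06). These 2 genes also passed without the block.

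UBXN10-AS1 had 1.81, 0.528 and 1.79 CPM in replicates 1 to 3 labelled siRNA1 and 2.55, 0.684 and 2.93 CPM in those labelled siRNA2, against 2.37, 1.19 and 3.43 CPM in those labelled NTC. The groups overlapped, but within each number the siRNA1 library was below the NTC one (log2 fold change -0.83 ± 0.15, adjusted p = 0.000689, and 0.719 without the block). THAP9-AS1, one of the 10 most abundant, had 66.6, 62.9 and 55.5 CPM under the siRNA1 label against 86.6, 73.6 and 68.0 CPM under the NTC label (log2 fold change -0.32 ± 0.07, adjusted p = 0.00293).

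Smaller or less stable decreases were those of RDH10-AS1 (log2 fold change -0.69, adjusted p = 0.00964), beside a retinol dehydrogenase gene, and CACNA1C-AS1 (-0.59, adjusted p = 0.0113), inside the gene of a voltage-gated calcium channel subunit. RHPN1-AS1 (-0.59, adjusted p = 0.0287), FOXP4-AS1 (-0.37, adjusted p = 0.0483), DLEU7-AS1 (-0.32, adjusted p = 0.033) and LEF1-AS1 (-0.30, adjusted p = 0.0187) each passed in 3 to 5 of the 9 fits that left out 1 library. By contrast, 14 of the 47 called genes passed in all 9: HDAC2-AS2, EPHA1-AS1, BHLHE40-AS1, TNRC6C-AS1, RTCA-AS1, MMP25-AS1, CHRM3-AS2, CEBPB-AS1, TRG-AS1, C1RL-AS1, PPP3CB-AS1, HHIP-AS1, UBXN10-AS1 and DBH-AS1.

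**Figure D3:**
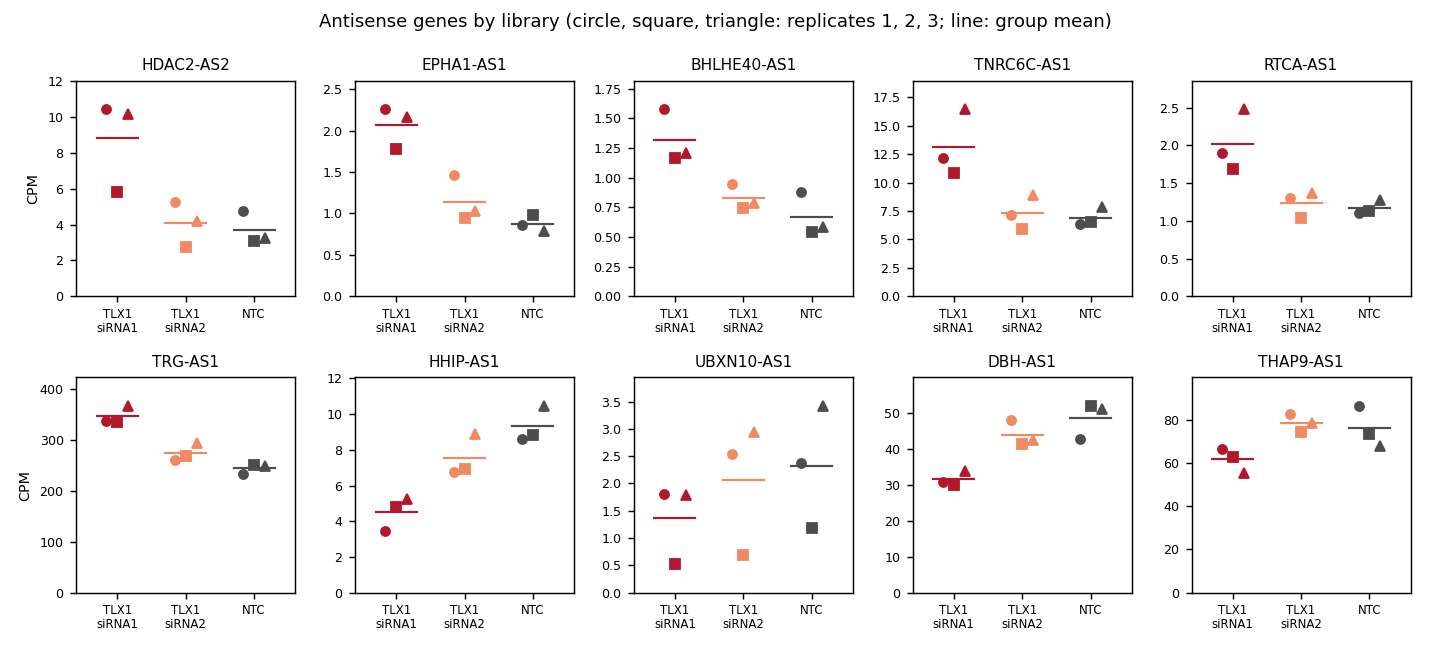
Each panel gives the level in CPM (vertical axis, from 0) of 1 antisense gene in the 9 libraries, by label from left to right (TLX1 siRNA1, TLX1 siRNA2, NTC), with the symbol shape for the replicate number and a line at the group mean. The siRNA1 libraries stand above the NTC libraries in HDAC2-AS2, EPHA1-AS1, BHLHE40-AS1, TNRC6C-AS1, RTCA-AS1 and TRG-AS1 and below them in HHIP-AS1, DBH-AS1 and THAP9-AS1, while the groups overlap in UBXN10-AS1.

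Antisense genes known from T cells or proliferating cells that were to be named whatever their values did not pass. SATB1-AS1, beside the gene of a chromatin organiser of thymocytes, had 7.68, 8.22 and 11.8 CPM under the siRNA1 label against 6.74, 8.60 and 9.02 CPM under the NTC label (log2 fold change 0.15 ± 0.10, adjusted p = 0.371). TMPO-AS1, beside a nuclear lamina gene, had 37.4, 30.0 and 31.3 CPM against 33.6, 26.1 and 31.3 CPM (log2 fold change 0.10 ± 0.08, adjusted p = 0.449), with 78.2% of its reads shared. The siRNA1 and NTC groups overlapped in each.

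The calls were also counted by arrangement, beside the 5.48% higher and 5.93% lower of all tested genes. Of the 113 head-to-head genes with overlap 15 were higher and 7 lower (19.5% called). Of the 36 without overlap 6 were higher and 1 lower (19.4%). Of the 63 tail to tail with overlap 4 were higher and 1 lower (7.94%). Of the 53 within the partner 9 were higher and 3 lower (22.6%), and of the 20 that contain it none was called. Median log2 fold changes were 0.13, 0.14, 0.08, 0.01 and 0.10 in this order. Of the 54 antisense genes with an overlap share under 1%, 15 were among the 47 called, and of the 104 with a share over 50%, 6 were. With the strand counts summed, 39 of the 47 also passed.

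Among their sense partners, 22 of 272 distinct tested genes were higher (8.09%) and 27 lower (9.93%) against the 5.48% and 5.93% of all tested genes, and their median log2 fold change was -0.01. Of the 277 pairs in which both genes were tested, 13 had both called, and in all 13 both moved the same way. In 7 pairs both were higher (those of EPHA1, BHLHE40, MMP25, CEBPB, PCED1B, C1RL and CARD8), in 6 both were lower (HHIP, UBXN10, RDH10, DBH, CACNA1C and LEF1), and no pair moved in opposite directions. A single pair did so in 3 of the alternatives: with no filter beyond 1 count (13 pairs the same way), with only these 2 groups in the fit (15 the same way) and without siRNA2 replicate 2 (12 the same way). Among the 5699 other opposite-strand pairs of tested genes that overlap or start head to head, 110 had both called and 101 of these (91.8%) moved the same way. A called antisense gene had a called partner in 13 of 43 pairs (30.2%), an antisense gene not called in 36 of 234 (15.4%). The number of pairs with both called was 7 without siRNA1 replicate 1, 8 without siRNA1 replicate 2, 7 without siRNA1 replicate 3, and 2 without the block. Across the 277 pairs, the fold changes of antisense gene and partner had a Spearman correlation of 0.22 and a Pearson correlation of 0.41. These are given as a description, since all pairs come from the same libraries and the counts do not mark strand. Of the 13 pairs, 9 ran head to head with overlap, 3 had the antisense gene within the partner and 1 ran tail to tail, and none was among the 36 head-to-head pairs without overlap. The overlap share covers only annotated exons. Without strand marks, a read of the partner outside its exons that falls in an antisense exon counts for the antisense gene. How far this adds to the same direction in these pairs was not tested.

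The HHIP pair moved together in every group. HHIP had 2.97, 3.87 and 5.06 CPM in the libraries labelled siRNA1 and 5.12, 5.86 and 8.11 CPM in those labelled siRNA2, against 6.41, 7.81 and 9.11 CPM in those labelled NTC. Like HHIP-AS1, it was lowest under the siRNA1 label, and the 3 libraries of each group stood in the same order for both genes (log2 fold change -1.0 ± 0.09, adjusted p = 1.3e-07). Shared reads made up 12.5% of the reads of HHIP-AS1 and 15.2% of those of HHIP. EPHA1 had 9.21, 9.11 and 7.64 CPM under the siRNA1 label and 5.13, 5.67 and 4.06 CPM under the siRNA2 label, against 3.52, 4.70 and 3.76 CPM under the NTC label (log2 fold change 1.10 ± 0.10, adjusted p = 1.11e-07), and the ratio within the pair differed by 0.09 ± 0.16 (adjusted p = 0.815).

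MMP25 had 33.4, 29.1 and 19.5 CPM under the siRNA1 label against 17.0, 16.7 and 8.62 CPM under the NTC label, and MMP25-AS1 had 57.8, 37.3 and 48.2 CPM against 35.1, 27.2 and 22.6 CPM. Both rose, by 0.97 and 0.75 on the log2 scale, and 53.6% of the reads of MMP25 and 37.7% of those of MMP25-AS1 were shared. DBH had 17.2, 17.1 and 22.1 CPM against 22.4, 30.7 and 30.8 CPM (log2 fold change -0.59 ± 0.09, adjusted p = 8.7e-05). RDH10 had 70.0, 85.4 and 53.8 CPM under the siRNA1 label against 124, 136 and 86.7 CPM under the NTC label (log2 fold change -0.74 ± 0.07, adjusted p = 8.72e-08). BHLHE40 rose by 0.55 ± 0.09 (adjusted p = 0.000272). The UBXN10, CEBPB, PCED1B, C1RL, CACNA1C, CARD8 and LEF1 changes lay between -0.62 and 0.75 on the log2 scale. LEF1, at 691, 665 and 753 CPM against 873, 739 and 853 CPM, fell by 0.24 beside 0.30 for LEF1-AS1, 85.8% of whose reads were shared.

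Whether an antisense gene changed differently from its partner was tested directly on the ratio of the 2 levels within each library. The ratio differed between the siRNA1 and NTC labels in 32 of 277 pairs (11.6%), against 7.97% of all 5976 opposite-strand pairs tested, and 29 of the 32 were higher, that is, shifted towards the antisense gene. In 14 of the 32 the antisense gene was called, in 11 the partner, and in 7 neither. No ratio was called in the 13 pairs with both genes called. The number with a called ratio was 15 without siRNA1 replicate 1, 15 without siRNA1 replicate 3, 17 without NTC replicate 1, 49 without NTC replicate 2, 17 without NTC replicate 3, 1 without the block, 1 without the variance trend of the limma fit and 21 with the strand counts summed. The adjusted p-values of ratios below are those with the block and the trend.

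In the pairs with the largest shifts either the antisense gene or the partner moved, and the other did not pass. HDAC2 stood at 231, 237 and 224 CPM under the siRNA1 label against 241, 236 and 242 CPM under the NTC label (log2 fold change -0.07 ± 0.06, adjusted p = 0.532), so the shift of 1.29 ± 0.13 in its pair (adjusted p = 3.68e-07) stood beside an increase of the antisense gene. TNRC6C had 301, 325 and 299 CPM against 312, 404 and 310 CPM (log2 fold change -0.15 ± 0.07, adjusted p = 0.152), with a shift of 1.05 ± 0.09 (adjusted p = 1.34e-07). RTCA, an RNA terminal phosphate cyclase gene, had 48.5, 49.6 and 47.5 CPM against 44.8, 46.5 and 46.5 CPM (log2 fold change 0.06 ± 0.06, adjusted p = 0.619), with a shift of 0.69 ± 0.15 (adjusted p = 0.00463).

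The SCAMP1 pair, whose starts lie 76 bases apart, showed the converse. SCAMP1, which encodes a carrier membrane protein of the secretory pathway, had 18.3, 21.6 and 22.3 CPM in the libraries labelled siRNA1 and 35.4, 39.0 and 49.7 CPM in those labelled siRNA2, against 34.2, 40.5 and 40.8 CPM in those labelled NTC (log2 fold change -0.91 ± 0.07, adjusted p = 7.95e-09). SCAMP1-AS1 had 8.79, 9.36 and 10.2 CPM, 7.42, 8.33 and 8.59 CPM, and 7.21, 9.05 and 9.21 CPM in the same 3 groups (log2 fold change 0.14 ± 0.08, adjusted p = 0.322). The shift was 1.05 ± 0.10 (adjusted p = 2.01e-07), and only 0.188% of the antisense reads were shared.

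PRKCQ, which encodes the protein kinase C theta of T-cell receptor signalling, was higher while its divergent antisense gene did not pass. PRKCQ had 76.1, 82.5 and 85.6 CPM under the siRNA1 label and 52.1, 55.8 and 62.6 CPM under the siRNA2 label, against 52.6, 39.8 and 48.9 CPM under the NTC label (log2 fold change 0.78 ± 0.08, adjusted p = 1.07e-06). PRKCQ-AS1 (chr10:6580419-6616452, plus strand, starts 118 bases apart) had 25.0, 29.3 and 30.0 CPM, 22.8, 27.8 and 30.1 CPM, and 23.4, 27.7 and 28.5 CPM in the same 3 groups (log2 fold change 0.07 ± 0.07, adjusted p = 0.607). The ratio fell by 0.71 ± 0.09 (adjusted p = 5.33e-06).

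UMODL1 (log2 fold change -0.83 ± 0.12, adjusted p = 2.34e-05) was lower beside UMODL1-AS1 (-0.11 ± 0.12, adjusted p = 0.66), with a shift of 0.73 (adjusted p = 0.000785). ATE1, an arginyltransferase gene, was lower by 0.28 (adjusted p = 0.00553) beside ATE1-AS1 at 0.45 ± 0.20 (adjusted p = 0.161), with a shift of 0.77 (adjusted p = 0.025). CD27, a co-stimulatory receptor gene at 0.936, 0.851 and 1.47 CPM against 0.538, 0.573 and 1.03 CPM, was higher by 0.59 (adjusted p = 0.0413) beside CD27-AS1 at -0.09 (adjusted p = 0.625), with a shift of -0.68 (adjusted p = 0.029), and 87.4% of the reads of CD27 were shared. In the DLEU7 pair the antisense gene was lower and DLEU7 was at 0.27 ± 0.11 (adjusted p = 0.141), with a shift of -0.59 (adjusted p = 0.00429).

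**Figure D4:**
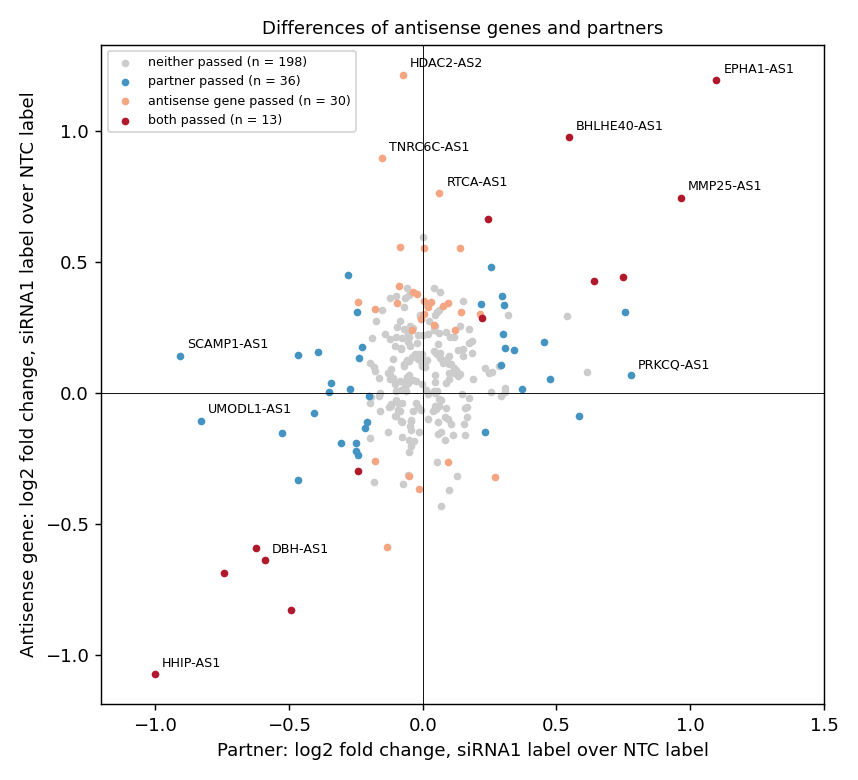
Log2 fold changes of the siRNA1 label over the NTC label are plotted for 277 pairs, the partner on the horizontal and the antisense gene on the vertical axis, coloured by which of the 2 genes passed at an adjusted p under 0.05. The 13 pairs with both genes passed lie at the lower left and upper right, while HDAC2-AS2, TNRC6C-AS1 and RTCA-AS1 lie near the vertical zero line and SCAMP1-AS1 and PRKCQ-AS1 near the horizontal one.

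**Figure D5:**
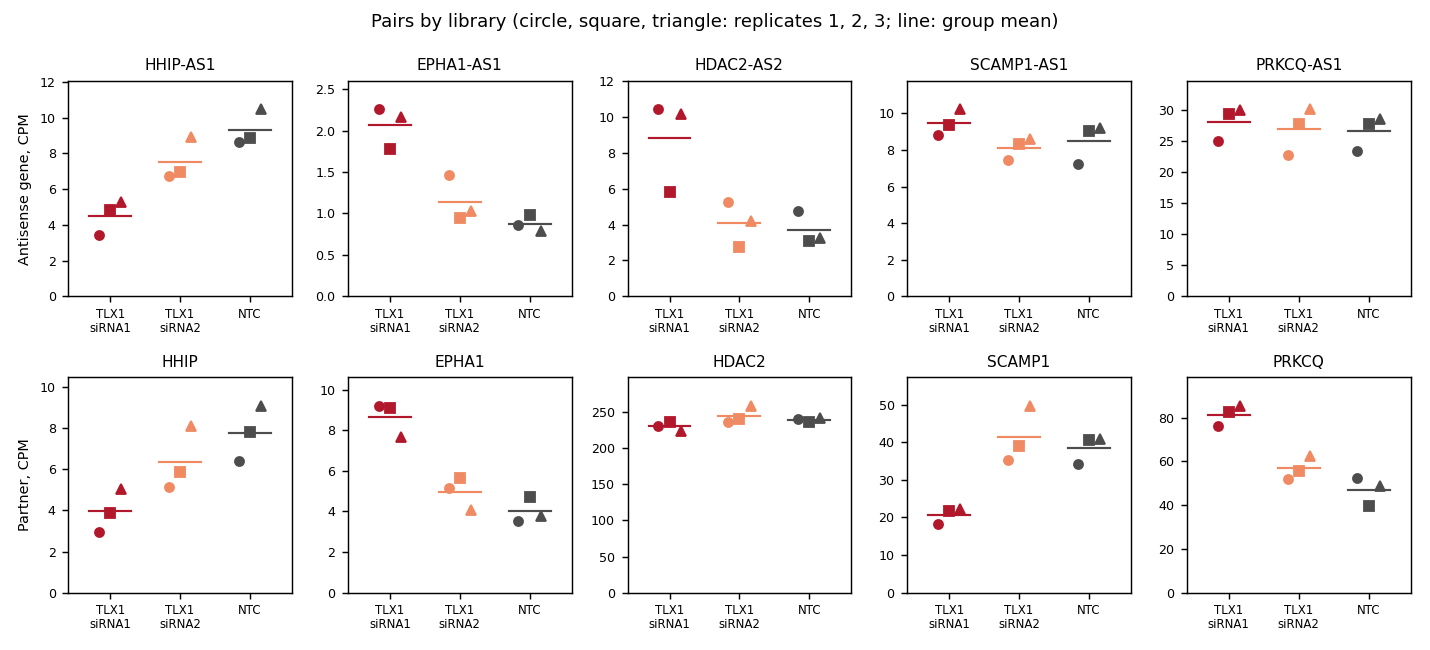
The upper row gives the level of 5 antisense genes and the lower row that of their partners, in CPM from 0 in the 9 libraries, by label from left to right (TLX1 siRNA1, TLX1 siRNA2, NTC), with the symbol shape for the replicate number and a line at the group mean. HHIP and EPHA1 move with their antisense genes, HDAC2 has similar levels in all groups, and SCAMP1 and PRKCQ move without theirs.

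Between the siRNA2 and NTC labels no antisense gene was called by edgeR, DESeq2 or limma-voom, against 0.151% of all tested genes by edgeR. By edgeR 12 of the 290 had an unadjusted p under 0.05, a smaller share than the 0.05 of that threshold. The median log2 fold change was -0.01 over the 290 and 0.00 over all tested genes. The lowest adjusted p, 0.225, belonged to HHIP-AS1, with a log2 fold change of -0.32 ± 0.10. Of the 272 partners only H1FX, a linker histone gene, was called. It had 96.0, 84.4 and 99.9 CPM under the siRNA2 label against 109, 124 and 138 CPM under the NTC label (log2 fold change -0.42, adjusted p = 0.0386), with H1FX-AS1 at -0.13 (adjusted p = 0.856).

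Between the siRNA1 and siRNA2 labels 31 antisense genes were higher (10.7%) and 6 lower (2.07%), while 5.29% of all tested genes were higher and 5.27% lower. The largest increases were again HDAC2-AS2 (log2 fold change 1.12, adjusted p = 3.58e-07), EPHA1-AS1 (0.86, adjusted p = 0.000636), TNRC6C-AS1 (0.84, adjusted p = 4.73e-07), CEBPB-AS1 (0.72, adjusted p = 0.00132) and RTCA-AS1 (0.70, adjusted p = 0.00182). Lowest were RDH10-AS1 (-0.81, adjusted p = 0.00278), HHIP-AS1 (-0.75, adjusted p = 1.8e-05), UBXN10-AS1 (-0.55, adjusted p = 0.0259), DBH-AS1 (-0.48, adjusted p = 0.000193) and FOXP4-AS1 (-0.44, adjusted p = 0.0202). Both siRNA1 comparisons share the siRNA1 libraries, and 28 genes were called in both, each in 1 direction. Without siRNA1 replicate 1 the count of 37 was 18, without siRNA1 replicate 3 it was 23, and without the block it was 2. For these 3 fits the share of all tested genes called is not given either. In 8 pairs both genes were called, 5 higher and 3 lower, and none in opposite directions. Among the 5699 other opposite-strand pairs, 91 had both called in this comparison and 81 of these (89.0%) moved the same way.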

How the data were processed

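The 9 ALL-SIL libraries were made from polyadenylated RNA with a TruSeq kit that does not mark strand, per the labels' protocols. The deposited values are raw read counts by gene, in a table for each library that opens with 4 summary lines and gives 1 unstranded count and 2 strand counts, on GRCh38 per the submitters' processing notes. The aligner and the counting annotation are unknown from the sources used here. GENCODE 29 gave symbols, exons and biotypes (604 identifiers unmatched). In the unstranded count 7.21% to 7.80% of uniquely placed reads were ambiguous, against 1.61% to 1.79% by strand, and reads of overlapping opposite-strand genes cannot be told apart.

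Levels are CPM of all gene counts. Genes were tested with edgeR 4.0.16 (R 4.3.3) by its quasi-likelihood test with TMM factors between 0.975 and 1.04. The filter filterByExpr, run by group at its minimum count of 10 and minimum total of 15, left 18554 genes, all 290 antisense genes among them. One fit held all 9 libraries with the replicate number as a block, and genes were called at a Benjamini-Hochberg adjusted p under 0.05 over all genes. SE is the size of the log2 fold change divided by the root of its F statistic. Ratios within pairs were tested with limma 3.58.1 on log2 CPM (prior count 2), with a variance trend on the lower mean, over 5976 opposite-strand pairs that overlap or start head to head within 2000 bases, and adjusted over these. The numbers pair the libraries: deviations from group means correlated at 0.383 to 0.623 in all 9 same-numbered pairs of libraries and at -0.445 to 0.069 in the others. Chi-square per degree of freedom between replicates was 36.0 to 60.7, so none repeats another. The tests were checked on simulated data.

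The naming rule took TLX1, 5 antisense genes known from T cells or dividing cells, the 10 most abundant, the 3 on either side of the threshold, up to 10 called each way (5 between the siRNA labels), up to 6 pairs with both called and up to 5 with a called ratio each way, and the 5 highest overlap shares. Other names were chosen after their values were seen. Members and lists were chosen with earlier results of these data known. Alternatives were other scaling, filters, DESeq2 1.42.0, limma-voom, the strand counts summed, left-out libraries and other thresholds.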

Additional observations from a re-analysis of the deposited data

How the results depend on the processing

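Calls of antisense genes between the siRNA1 and NTC labels kept within 1.5 times of the 47 under RLE factors (49), library size alone (43), no filter (45), a CPM of 1 in 3 libraries (49), DESeq2 (39), limma-voom (37), the summed strand counts (43, with 28 higher and 15 lower) and a fit of only these 2 groups (48). Without the replicate block, 5 antisense genes passed between these labels and 2 between the siRNA labels, 2 pairs had both genes called, 1 pair had a called ratio, and 5 of the 22 genes named for this comparison passed. Without the 3 libraries numbered 1 these counts were 16, 20, 6, 12 and 14. With 1 library left out in turn they ran from 19 to 53, from 18 to 45, from 7 to 16, from 15 to 49 and from 14 to 22. A ratio was called in 1 pair without the variance trend and in 21 with the strand counts summed. The cause of these shifts was not tested. Shares of all tested genes with libraries left out are not given, so the shifts cannot be read as particular to antisense genes. With summed strand counts 449 genes, not 290, reached 0.5 CPM, since that sum counts each shared read for both genes. Under the same sum PAXBP1-AS1 had a log2 fold change of -0.0039 (adjusted p = 0.986). No alternative gave a call between the siRNA2 and NTC labels. Of the refits of single named genes, 349 kept their side of the threshold, 68 lost it and 1 changed sign. Shared reads limit what these counts can show, since 104 of 290 antisense genes have over 50% of their reads in common with an opposite-strand gene.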

Other observations

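Other classes of noncoding names were counted in the same comparison of the siRNA1 and NTC labels, in which 5.48% of all tested genes were higher and 5.93% lower. Of 157 tested antisense genes below 0.5 CPM, 1 was higher and 1 lower (0.637% each). Of 42 tested divergent transcripts, whose symbols end in -DT, 4 were higher (9.52%) and 1 was lower (2.38%). Between the siRNA1 and siRNA2 labels 6 of the 42 were higher (14.3%, against 5.29% of all tested genes) and none lower. None of 21 intronic transcripts (ending in -IT and a digit) and none of 2 overlapping transcripts (ending in -OT and a digit) was called by edgeR. PPP3CB-AS1, beside a calcineurin subunit gene and chosen after its values were seen, had 12.6, 15.2 and 12.0 CPM under the siRNA1 label against 9.38, 12.1 and 8.82 CPM under the NTC label (log2 fold change 0.39 ± 0.08, adjusted p = 0.00143), while PPP3CB had 58.4, 49.1 and 58.7 CPM against 55.0, 55.4 and 57.5 CPM (-0.04 ± 0.07, adjusted p = 0.818).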
